A study of Mus musculus with 8 samples.

Results

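The tumour necrosis factor (TNF) superfamily was described in bulk RNA sequencing of Langerhans cells, the dendritic cells that reside in the epidermis, sorted from mouse ear skin. Its members were the protein-coding genes with a symbol that begins with Tnfsf or Tnfrsf and a digit, together with Tnf, Lta, Ltb, Ltbr, Fas, Fasl and Ngfr. The annotation held 38 such genes, and all 38 had a row in the table of 25247 genes. Of these, 15 encode ligands and 23 encode receptors. The libraries came from EZH2 -/- (KO) and wild-type (WT) mice, all on a C57BL/6 background, with 4 libraries labelled for each genotype. EZH2 is the histone methyltransferase of Polycomb repressive complex 2, and the study's title names Langerhans cell migration and allergic contact dermatitis as its subject. No treatment is given for either genotype. The age of the mice, the deleted part of the gene and any promoter or Cre that drove the deletion are not given in the sources used here, nor is it stated that each library came from its own animal. The p-values therefore describe how these libraries vary, and that variation may be technical.

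The genotype of 4 libraries is ambiguous, because titles and descriptions attach different library codes to them. RMN038 and RMN039 are KO by both codes, and RMN030 and RMN031 are WT by both codes. RMN036 and RMN037 are KO by the descriptions and WT by the titles, and RMN032 and RMN033 are WT by the descriptions and KO by the titles. The codes form a later run, 036 to 039, and an earlier run, 030 to 033. By the descriptions KO is the later run and WT the earlier run, so genotype and code run cannot be told apart. By the titles each run holds 2 libraries of each genotype. Every comparison is therefore given for each reading, and in the text KO or WT stands before a code only where both labels give it.

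TNF superfamily ligands are mostly trimeric proteins, made at the cell membrane and in part shed from it, that cluster their receptors. Receptors with a death domain can start apoptosis or necroptosis through adaptors such as FADD and TRADD. The others recruit TRAF proteins and activate NF-kappaB and MAP kinases, and a few members without a signalling tail act as decoys. In skin, TNF is known to promote the departure of Langerhans cells from the epidermis to the draining lymph node, and RANK signalling is known to sustain their number.

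The sequences shown are the promoters of the 3 neighbouring ligand genes of the TNF locus on chromosome 17, of which only Tnf was abundant. That of Tnfsf18, the ligand next in mean level, is added. All these promoters run from 250 bases before to 50 bases after the gene start, 5′ to 3′ along the gene, and come from RefSeq (GRCm38.p6). Capitals mark matches on either strand to TATAAA or to the kappaB consensus, the site bound by NF-kappaB. The regions are chr17:35201958-35202257 (minus strand), chr17:35205302-35205601 (minus strand), chr17:35194257-35194556 (plus strand) and chr1:161494407-161494706 (plus strand).
Tnf: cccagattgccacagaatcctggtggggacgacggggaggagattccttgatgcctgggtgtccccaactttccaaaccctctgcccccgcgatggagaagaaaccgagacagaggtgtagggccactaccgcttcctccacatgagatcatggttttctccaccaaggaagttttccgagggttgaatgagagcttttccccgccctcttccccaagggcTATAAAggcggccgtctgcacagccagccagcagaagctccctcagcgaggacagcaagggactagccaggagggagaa
Lta: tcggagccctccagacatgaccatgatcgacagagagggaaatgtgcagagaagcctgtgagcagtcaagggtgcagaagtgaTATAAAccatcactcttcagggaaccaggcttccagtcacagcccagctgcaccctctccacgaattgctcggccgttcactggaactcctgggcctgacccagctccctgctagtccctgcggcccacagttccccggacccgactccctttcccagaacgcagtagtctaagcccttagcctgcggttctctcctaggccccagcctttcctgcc
Ltb: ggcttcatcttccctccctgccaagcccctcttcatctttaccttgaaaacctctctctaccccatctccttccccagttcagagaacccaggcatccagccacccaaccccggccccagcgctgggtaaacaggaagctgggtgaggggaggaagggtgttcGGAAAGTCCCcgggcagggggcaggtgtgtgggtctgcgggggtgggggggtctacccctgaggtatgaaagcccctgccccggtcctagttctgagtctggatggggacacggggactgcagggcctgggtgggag
Tnfsf18: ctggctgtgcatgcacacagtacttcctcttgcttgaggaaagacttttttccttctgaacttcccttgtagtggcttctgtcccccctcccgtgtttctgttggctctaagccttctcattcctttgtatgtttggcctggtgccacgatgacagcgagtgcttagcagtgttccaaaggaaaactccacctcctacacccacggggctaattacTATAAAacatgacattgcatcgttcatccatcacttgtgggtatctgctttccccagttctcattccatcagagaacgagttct

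TATAAA began at position -29 from the gene start in Tnf and at -34 in Tnfsf18, the position usual for a TATA box. In Lta it began at -167 and in Ltb there was none. The position did not go with the level in every ligand. In Tnfsf11, not shown, TATAAA began at -32, although that gene averaged 0.253 CPM with 3 libraries at 0. The kappaB consensus began at -87 in Ltb and was not matched in these windows of Tnf, Lta and Tnfsf18. A promoter was found for 31 of the 38 members, and 7 (Tnfrsf10b, Tnfrsf22, Tnfrsf26, Tnfrsf11b, Tnfsf12, Tnfsf9 and Tnfsf4) are named only. TATAAA was present in 15% of the 20 member promoters of genes at a mean of 1 CPM or more, in 27.3% of the 11 of lower genes, and in 13.6% of all 32851 RefSeq promoters. The kappaB consensus was present in 5.0%, 9.09% and 8.46% of these sets. GGGCGG, the GC box, was present in 55.0%, 45.5% and 35.7%, and TGANTCA, the AP-1 site, in 5.0%, 36.4% and 7.81%. Members were taken once per gene, whereas every RefSeq entry was counted for the last share, whether or not its gene was read here. All motifs were searched on both strands, and a match is not evidence that a factor binds there.

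Total counts ranged from 11051402 to 18966195 per library, and a count of 0 allows up to 3 counts, which is 0.158 to 0.271 on the CPM scale (counts scaled to each library's total), for counting error only. Cd207, which encodes langerin, stood at 9706 to 11960 CPM, and the 6 markers of Langerhans cells and of the sort together at 60330 to 76150 CPM. Ezh2 was read at 12.7 and 10.5 CPM in KO RMN038 and RMN039, 19.0 and 17.6 in RMN036 and RMN037, 15.2 and 14.9 in RMN032 and RMN033, and 15.7 and 22.4 in WT RMN030 and RMN031. These counts cover the whole gene and do not test the deletion. The 10 markers of T cells, which also use many TNF superfamily genes, summed to 247 to 281 CPM in WT RMN030 and RMN031 and to 37.0 to 50.6 CPM in the 6 other libraries. Of them, Cd8b1 was at 0 in all of those 6 libraries, and Cd4, at 33.5 to 47.0 CPM there, made up most of the sum. The 6 keratinocyte markers summed to 11710 to 15070 CPM, most of it Krt14 and Krt5, which overlapped between runs, as did Krt10. The 3 others separated by run. Krt15 had 1060 to 1120 CPM in the later run and 1337 to 1656 in the earlier run, Trp63 165 to 249 and 271 to 441.5, and Krt1 81.6 to 101 and 33.6 to 59.5. The 4 macrophage markers summed to 152 to 198 CPM in the later run and 53.5 to 92.3 in the earlier run, the 5 fibroblast markers to 110.0 to 176 and 35.6 to 49.1 CPM, and the 5 blood markers to 580.2 to 1355 and 122 to 226 CPM. The 5 mast cell markers summed to 44.5 to 65.6 CPM in the later run and 31.1 to 43.1 in the earlier run, and the 4 without Kit, which tended the other way, to 23.3 to 47.4 and 2.16 to 5.76 CPM. The 5 B cell markers with a row, of 6, summed to at most 2.46 CPM, and the 2 NK cell markers with a row, of 4, to at most 1.74 CPM. In bulk RNA, fewer cells of a type and less RNA per cell cannot be told apart. Keratinocyte markers were high in every library, and which cell type supplied the reads of a member was not tested.

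Among the ligands, Tnf, the founding pro-inflammatory cytokine of the family, was by far the most abundant. Its level was 522 and 464 CPM in KO RMN038 and RMN039, 394 and 421 in RMN036 and RMN037, 590.1 and 583 in RMN032 and RMN033, and 614 and 559 in WT RMN030 and RMN031. All 8 libraries were high, the lowest being RMN036 and the highest RMN030. Per kilobase of exon, which allows genes to be compared, Tnf (ENSMUSG00000024401, chromosome 17, 35199381 to 35202007, minus strand, GRCm38 here and throughout) stood at 316 ± 50.5 CPM per kb (SD, n = 8), above 99.4% of the genes in the table. It made up 91.4 ± 0.83% of the summed level per kb of the 15 ligands (SD, n = 8, range 90.3 to 92.5%).

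Tnfsf18 and Tnfsf9 came next. Tnfsf18, the GITR ligand that costimulates T cells (ENSMUSG00000066755, chromosome 1, 161494655 to 161505290, plus strand), had 28.6 and 17.8 CPM in KO RMN038 and RMN039, 19.2 and 29.2 in RMN036 and RMN037, 30.9 and 28.2 in RMN032 and RMN033, and 24.4 and 31.03 in WT RMN030 and RMN031. The lowest values were in RMN039 and RMN036 and the highest in RMN031 and RMN032, so that each pair of the later run held 1 low and 1 higher library. Tnfsf9, the 4-1BB ligand (ENSMUSG00000035678, chromosome 17, 57105325 to 57107757, plus strand), had 20.6 and 16.4 CPM in KO RMN038 and RMN039, 7.39 and 7.67 in RMN036 and RMN037, 12.4 and 20.9 in RMN032 and RMN033, and 18.4 and 14.7 in WT RMN030 and RMN031. RMN036 and RMN037 were the lowest of the 8 libraries for Tnfsf9. Per kb, Tnfsf18 averaged 12.7 ± 2.497 CPM per kb (SD, n = 8) and Tnfsf9 11.5 ± 4.12 CPM per kb (SD, n = 8). Tnf was 25.6 ± 4.82 times Tnfsf18 (SD, n = 8) and higher in 8 of 8 libraries, whereas Tnfsf18 was above Tnfsf9 in only 4 of 8, so the order of those 2 was not resolved. An antisense gene overlaps 14.9% of the exonic bases of Tnfsf9, and the strand setting of the counting is not given, so its reads could include antisense ones.

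Tnfsf15, which encodes TL1A, the ligand of the death receptor Tnfrsf25, had 5.40 and 7.87 CPM in KO RMN038 and RMN039, 6.66 and 10.4 in RMN036 and RMN037, 8.33 and 7.49 in RMN032 and RMN033, and 4.20 and 4.74 in WT RMN030 and RMN031, a mean of 2.06 ± 0.615 CPM per kb (SD, n = 8). It was below Tnfsf9 in 8 of 8 libraries. Ltb, the membrane anchor of the lymphotoxin heterotrimer, had 1.85 and 2.35 CPM in KO RMN038 and RMN039, 0.672 and 2.58 in RMN036 and RMN037, 0.981 and 1.74 in RMN032 and RMN033, and 1.83 and 3.50 in WT RMN030 and RMN031. Tnfsf8, the CD30 ligand, had 0.0710 and 1.63 CPM in KO RMN038 and RMN039, 1.34 and 0 in RMN036 and RMN037, 3.19 and 2.85 in RMN032 and RMN033, and 1.45 and 0.646 in WT RMN030 and RMN031, and ranged from 0 to 54 counts. Its values overlapped between genotypes in every reading.

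Lta, the soluble lymphotoxin that lies next to Tnf, averaged under 1 CPM. It had 0.568 and 0.724 CPM in KO RMN038 and RMN039, 0.135 and 0.120 in RMN036 and RMN037, 3.12 and 1.05 in RMN032 and RMN033, and 0.382 and 0.539 in WT RMN030 and RMN031, which rests on 2 to 51 counts per library. The values of RMN032 and RMN033 were the highest and those of RMN036 and RMN037 the lowest. The KO and WT groups by title code therefore did not overlap, but Lta did not pass the low-count filter of that fit. Ltb, Tnf and Lta lie 3060 and 1157 bases apart, and the level per kb of Tnf (316) stood beside 1.28 for Ltb and 0.601 for Lta.

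The 8 other ligands averaged under 1 CPM. Tnfsf4, the OX40 ligand, ranged from 0 to 1.56 CPM with 1 library at 0. Tnfsf12 (TWEAK) ranged from 0.0764 to 0.754 CPM and Tnfsf13 (APRIL) from 0 to 1.07 CPM, but 46.8% and 57.3% of their 50-base words also occur in the readthrough gene Tnfsfm13, so both values are uncertain. Tnfsf14 (LIGHT) ranged from 0 to 1.55 CPM with 3 libraries at 0. Tnfsf13b (BAFF), a survival factor for B cells, ranged from 0 to 1.22 CPM with 1 library at 0. Tnfsf11 (RANK ligand) ranged from 0 to 0.724 CPM with 3 libraries at 0. Fasl, the death ligand of cytotoxic lymphocytes, was at 0 in 5 libraries and at most 0.431 CPM. Tnfsf10 (TRAIL) had 22 counts in WT RMN031, or 1.19 CPM, and 0 in the 7 other libraries.

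**Figure D1:**
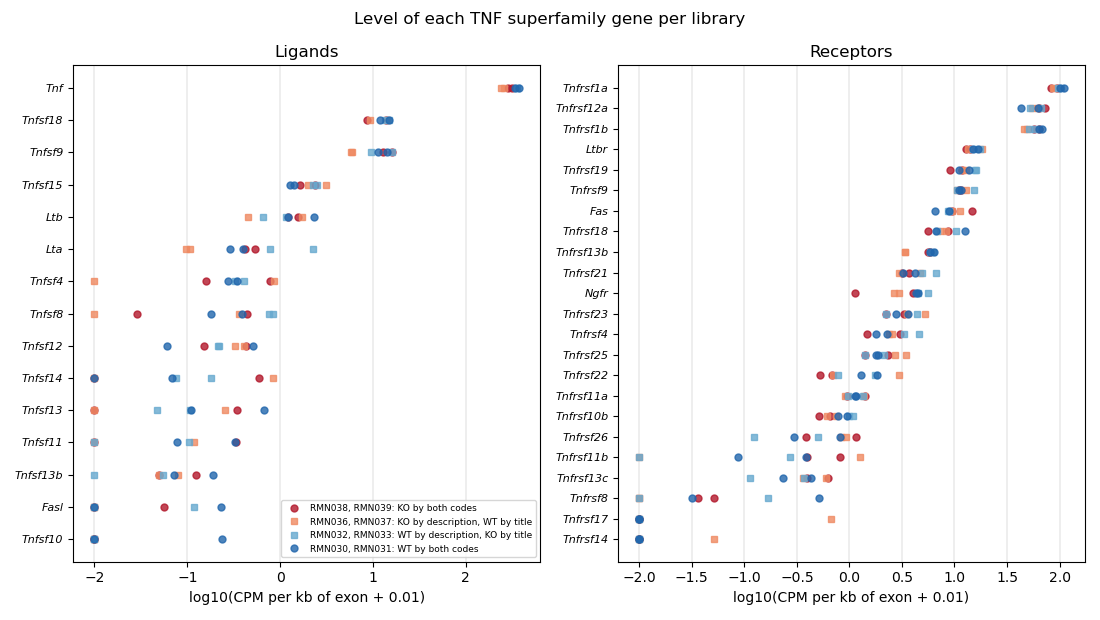
Level of each of the 15 ligand genes and 23 receptor genes in the 8 libraries, as log10 of CPM per kb of exon plus 0.01, ordered by mean, each point being 1 library coloured by its pair of codes. Tnf stands apart from the other ligands, and Tnfrsf1a, Tnfrsf12a and Tnfrsf1b lead the receptors, while points at the left edge are libraries with a count of 0.

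Among the receptors, both TNF receptors and the TWEAK receptor led. Tnfrsf1a, the death-domain TNF receptor found on most cells (ENSMUSG00000030341, chromosome 6, 125349362 to 125362484, plus strand), had 216 and 245 CPM in KO RMN038 and RMN039, 231 and 223 in RMN036 and RMN037, 252 and 269 in RMN032 and RMN033, and 284 and 262 in WT RMN030 and RMN031. The 4 libraries of the later run lay below the 4 of the earlier run. Tnfrsf1b, the TNF receptor without a death domain that prefers membrane-bound TNF (ENSMUSG00000028599, chromosome 4, 145213463 to 145246870, minus strand), had 216 and 244 CPM in KO RMN038 and RMN039, 177 and 186 in RMN036 and RMN037, 197 and 224 in RMN032 and RMN033, and 244 and 260.2 in WT RMN030 and RMN031. RMN036 and RMN037 were lowest for Tnfrsf1b. RMN031 was highest, while RMN030 and RMN039 were level at 244 CPM. Tnfrsf12a, which encodes Fn14, the receptor of TWEAK (ENSMUSG00000023905, chromosome 17, 23675445 to 23677468, minus strand), had 123 and 139.6 CPM in KO RMN038 and RMN039, 106 and 119.5 in RMN036 and RMN037, 101 and 129 in RMN032 and RMN033, and 122 and 83.2 in WT RMN030 and RMN031. Its lowest value was that of RMN031.

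Per kb these 3 receptors averaged 95.6 ± 9.11 CPM per kb (SD, n = 8) for Tnfrsf1a, 59.7 ± 9.21 CPM per kb (SD, n = 8) for Tnfrsf12a and 57.2 ± 7.87 CPM per kb (SD, n = 8) for Tnfrsf1b. Together they made up 71.6 ± 2.37% of the summed level per kb of the 23 receptors (SD, n = 8, range 68.4 to 75.0%). Tnfrsf1a was above Tnfrsf12a in 8 of 8 libraries. Tnfrsf12a was above Tnfrsf1b in 6 of 8, with a ratio per kb of 0.632 to 1.27, so their order was not resolved. All 3 were above every other receptor's mean, the next being Ltbr.

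The other death-domain receptors were lower. Fas, the receptor of Fas ligand (ENSMUSG00000024778, chromosome 19, 34290666 to 34327772, plus strand), had 30.3 and 19.4 CPM in KO RMN038 and RMN039, 23.3 and 19.7 in RMN036 and RMN037, 17.9 and 18.2 in RMN032 and RMN033, and 13.4 and 18.2 in WT RMN030 and RMN031. The 4 libraries of the later run were above the 4 of the earlier run. Ngfr, the p75 neurotrophin receptor (ENSMUSG00000000120, chromosome 11, 95568818 to 95587735, minus strand), had 3.84 and 13.8 CPM in KO RMN038 and RMN039, 9.14 and 10.2 in RMN036 and RMN037, 15.4 and 19.4 in RMN032 and RMN033, and 15.4 and 14.7 in WT RMN030 and RMN031. Here the later run lay below the earlier run, and RMN038 was the lowest library by a wide margin. Tnfrsf10b, the TRAIL receptor that carries a death domain, had 3.48 and 2.71 CPM in KO RMN038 and RMN039, 3.97 and 3.30 in RMN036 and RMN037, 5.33 and 5.80 in RMN032 and RMN033, and 5.12 and 4.20 in WT RMN030 and RMN031, again with the later run below the earlier run. Tnfrsf21 (DR6) had 15.2 and 12.8 CPM in KO RMN038 and RMN039, 12.2 and 19.1 in RMN036 and RMN037, 27.3 and 19.98 in RMN032 and RMN033, and 13.3 and 17.1 in WT RMN030 and RMN031, with its highest value in RMN032. Tnfrsf25, the TL1A receptor, had 3.20 and 5.25 CPM in KO RMN038 and RMN039, 6.18 and 7.85 in RMN036 and RMN037, 4.84 and 3.22 in RMN032 and RMN033, and 4.20 and 4.04 in WT RMN030 and RMN031. RMN036 and RMN037 were the highest libraries for Tnfrsf25, the reverse of their place in Tnf, Tnfsf9, Lta, Tnfrsf1b and Tnfrsf13b. Of the genes tested, 5.15% had RMN036 and RMN037 below, and 4.69% above, the 6 other libraries, a grouping chosen after the values were seen.

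Receptors that costimulate lymphocytes or signal through TRAF proteins followed. Ltbr, the lymphotoxin beta receptor that drives the noncanonical NF-kappaB route, had 33.03 and 30.4 CPM in KO RMN038 and RMN039, 31.6 and 43.1 in RMN036 and RMN037, 35.7 and 41.1 in RMN032 and RMN033, and 39.6 and 35.7 in WT RMN030 and RMN031. Tnfrsf19 (TROY), studied mainly in hair follicles and the nervous system, had 43.0 and 55.4 CPM in KO RMN038 and RMN039, 55.6 and 60.7 in RMN036 and RMN037, 74.8 and 75.7 in RMN032 and RMN033, and 52.2 and 64.6 in WT RMN030 and RMN031, with RMN032 and RMN033 highest. Tnfrsf9 (4-1BB), a costimulatory receptor, had 29.8 and 31.2 CPM in KO RMN038 and RMN039, 28.4 and 34.8 in RMN036 and RMN037, 42.2 and 28.5 in RMN032 and RMN033, and 29.7 and 31.5 in WT RMN030 and RMN031, and all but RMN032 lay within 28.4 to 34.8 CPM. Those 3 averaged 15.4 ± 1.95 CPM per kb (SD, n = 8), 12.7 ± 2.36 CPM per kb (SD, n = 8) and 11.8 ± 1.68 CPM per kb (SD, n = 8).

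Tnfrsf18 (GITR) had 8.52 and 13.2 CPM in KO RMN038 and RMN039, 11.03 and 12.7 in RMN036 and RMN037, 10.4 and 15.8 in RMN032 and RMN033, and 19.2 and 10.1 in WT RMN030 and RMN031, and its groups overlapped in every reading. An antisense gene covers 27.2% of its exonic bases, so part of its reads may be antisense. Tnfrsf4 (OX40), its neighbour 9551 bases away, had 4.12 and 1.99 CPM in KO RMN038 and RMN039, 3.43 and 3.24 in RMN036 and RMN037, 4.47 and 6.27 in RMN032 and RMN033, and 2.44 and 3.07 in WT RMN030 and RMN031. Tnfrsf13b (TACI), which binds BAFF and APRIL, had 16.6 and 15.9 CPM in KO RMN038 and RMN039, 9.61 and 9.59 in RMN036 and RMN037, 16.4 and 17.7 in RMN032 and RMN033, and 18.2 and 16.6 in WT RMN030 and RMN031. RMN036 and RMN037 were the only libraries under 10 CPM, and the 6 others lay within 15.9 to 18.2 CPM. Tnfrsf11a (RANK) had 8.31 and 5.61 CPM in KO RMN038 and RMN039, 8.27 and 5.33 in RMN036 and RMN037, 5.76 and 8.01 in RMN032 and RMN033, and 6.64 and 6.89 in WT RMN030 and RMN031, a 1.56-fold span in which the groups overlapped in every reading.

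The decoy receptors and a neighbour of 2 of them were low. Tnfrsf23 had 12.9 and 8.87 CPM in KO RMN038 and RMN039, 14.1 and 20.8 in RMN036 and RMN037, 17.3 and 8.75 in RMN032 and RMN033, and 10.8 and 14.3 in WT RMN030 and RMN031. Tnfrsf22 had 2.84 and 2.17 CPM in KO RMN038 and RMN039, 2.89 and 12.5 in RMN036 and RMN037, 7.35 and 3.27 in RMN032 and RMN033, and 5.42 and 7.59 in WT RMN030 and RMN031. In the mouse both bind TRAIL without a death domain, and they are near copies that lie next to each other on chromosome 7. Tnfrsf22 shares 17.3% of its 50-base words with Tnfrsf23 and 27.4% with any other gene, and Tnfrsf23 shares 18.0% with Tnfrsf22, so their separate values are uncertain. Tnfrsf26, the third gene of that cluster, had 1.21 and 3.71 CPM in KO RMN038 and RMN039, 2.96 and 2.64 in RMN036 and RMN037, 0.368 and 1.58 in RMN032 and RMN033, and 0.916 and 2.59 in WT RMN030 and RMN031. Tnfrsf11b (osteoprotegerin), the soluble decoy of RANK ligand, had 2.27 and 1.09 CPM in KO RMN038 and RMN039, 0 and 3.54 in RMN036 and RMN037, 0 and 0.738 in RMN032 and RMN033, and 1.07 and 0.215 in WT RMN030 and RMN031, with 2 libraries at 0.

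The 4 remaining receptors averaged under 1 CPM. Tnfrsf13c, the BAFF receptor of B cells, ranged from 0.211 to 1.27 CPM and was read in every library. Tnfrsf8 (CD30) was at 0 in 3 libraries and had its highest value, 1.72 CPM, in WT RMN031. Tnfrsf17 (BCMA) had 8 counts in RMN036 and 0 in the 7 other libraries. Tnfrsf14 (HVEM), the receptor of LIGHT, had 1 count in RMN037 and 0 elsewhere. For the last 2, the level in most libraries was under what these depths can show.

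Set side by side per kb, ligands and receptors of a pair were often unequal. Tnf was 3.30 ± 0.385 times Tnfrsf1a (SD, n = 8, range 2.69 to 3.82). Tnfsf18 and Tnfrsf18 averaged 12.7 and 8.29 CPM per kb, Tnfsf9 and Tnfrsf9 11.5 and 11.8, and Tnfsf15 and Tnfrsf25 2.06 and 2.13. Among the pairs plotted, these 3 had the closest means. The receptor was the higher gene in several others, for example Fas at 9.72 beside Fasl at 0.0473, Tnfrsf4 at 2.66 beside Tnfsf4 at 0.384, and Tnfrsf11a at 1.15 beside Tnfsf11 at 0.113 CPM per kb. Tnfrsf12a, at 59.7, also stood above Tnfsf12, whose own value of 0.279 CPM per kb is uncertain for the words it shares with the readthrough gene. The ligand had the higher mean in Tnfsf8 beside Tnfrsf8, at 0.367 and 0.0934 CPM per kb, and in Tnfsf14 beside Tnfrsf14, at 0.215 and 0.0052 CPM per kb, all 4 low and at 0 in at least 1 library.

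**Figure D2:**
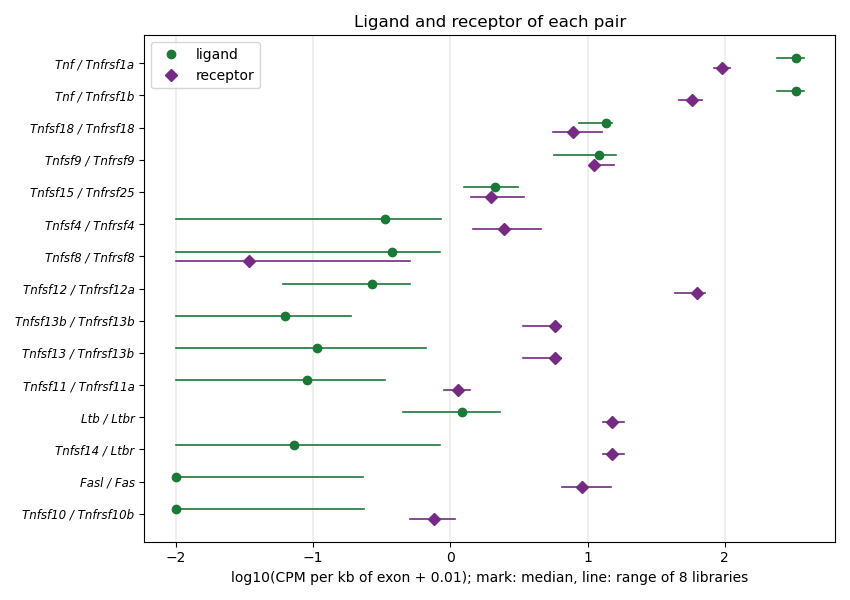
Level of the ligand (circle) and the receptor (diamond) of 15 pairs as log10 of CPM per kb of exon plus 0.01, with the mark at the median and the line over the range of the 8 libraries. Tnf exceeds its receptors, Tnfsf18, Tnfsf9 and Tnfsf15 lie near theirs, and most other ligands lie far below theirs.

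The comparison of KO with WT libraries was made first by description code, where it is also the comparison of the later with the earlier run. In edgeR's quasi-likelihood test 0 of 26 members that passed the low-count filter had a Benjamini-Hochberg adjusted p under 0.05, where 2.02% of the 14630 genes tested did. At an unadjusted p under 0.05 there were 3 members, Tnf, Fas and Ngfr, against 12.6% of all genes. Tnf averaged 450.3 ± 55.7 CPM in KO and 587 ± 22.6 in WT (SD, n = 4 each), giving a log2 fold change of -0.34 (SE 0.10) at an adjusted p of 0.109. Fas averaged 23.2 ± 5.10 CPM in KO and 17.0 ± 2.34 in WT, giving a log2 fold change of 0.49 (SE 0.19) at an adjusted p of 0.255. Ngfr averaged 9.23 ± 4.10 CPM in KO and 16.2 ± 2.12 in WT, giving a log2 fold change of -0.77 (SE 0.30) at an adjusted p of 0.271.

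In 5 of 26 members the description-code groups did not overlap in CPM, namely Tnf, Tnfrsf1a, Fas, Ngfr and Tnfrsf10b, among 8.82% of the genes tested. Tnfrsf1a averaged 229 ± 12.4 CPM in KO and 267 ± 13.7 in WT, and Tnfrsf10b 3.37 ± 0.52 in KO and 5.11 ± 0.67 in WT (SD, n = 4 each). Groups without overlap fix the exact two-sided permutation p at 0.0286, the smallest that 4 against 4 libraries allow. These 5 of 25 members so tested had that p, which restates the separation and adds no further test. The share of members is near that of all genes for the unadjusted calls. DESeq2, the other count test, called 1 member, Tnf, with a log2 fold change of -0.33 (adjusted p = 0.0372), and 2.8% of the genes it tested. That share counts all genes with a p-value, also those DESeq2 gave no adjusted p, so it is a lower bound. Over the other settings tried, the adjusted p of Tnf ranged from 0.0587 to 0.289, always with a negative log2 fold change. By this reading 1 of 6 ligands tested and 8 of 20 receptors had a positive log2 fold change. The median log2 fold change was -0.27 over these ligands, -0.11 over the receptors and -0.008 over all genes tested. The share of positive signs over all genes was not computed. The sums of macrophage, fibroblast, mast cell and blood markers were also higher in the later run, where Krt1 was higher and Krt15 and Trp63 lower, and their part in these differences was not tested.

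By title code, 0 of 26 members were called at an adjusted p under 0.05, as were 0.0% of the 14630 genes tested. At an unadjusted p under 0.05, 0 members stood against 4.59% of genes, and 0 of the 26 members that passed the filter were free of overlap between groups, against 2.94% of genes. DESeq2 called 0 of 37 members and 0.0953% of genes. Tnf averaged 539.7 ± 59.1 CPM in KO and 497 ± 106 in WT (SD, n = 4 each), with log2 fold change 0.11 (SE 0.14, adjusted p = 0.998), the opposite sign to that by description code. Fas, at 21.5 ± 5.95 CPM in KO and 18.6 ± 4.07 in WT, had a log2 fold change of 0.20 (SE 0.23) at an adjusted p of 0.998, the same sign in both readings. Ngfr had a log2 fold change of 0.07 (SE 0.38) at an adjusted p of 0.998. Here 5 of 6 ligands and 11 of 20 receptors were positive, with Tnfsf8 highest at 1.15 (SE 0.99) and Tnfrsf22 lowest at -0.87 (SE 0.46). The median was 0.13 over the ligands, 0.02 over the receptors and -0.003 over all genes tested.

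With the code run as a covariate in the title-code reading, 0 of 26 members and 0.0% of genes were called at an adjusted p under 0.05. Tnfsf9 was the 1 member at an unadjusted p under 0.05, against 6.15% of genes, with 17.6 ± 4.01 CPM in KO and 12.0 ± 5.42 in WT (SD, n = 4 each) and log2 fold change 0.63 (SE 0.29, adjusted p = 0.810). Lta, which the filter removed, averaged 1.37 ± 1.19 CPM in KO and 0.294 ± 0.203 in WT by title code. In the fit without the filter, its log2 fold change with the run as covariate was 2.20 (SE 0.90, adjusted p = 0.466).

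The 4 libraries on which both codes agree gave 0 of 27 members at an adjusted p under 0.05, against 0.794% of 14727 genes. At an unadjusted p under 0.05 there were Fas and Tnfrsf22, against 11.3% of genes. Fas had 30.3 and 19.4 CPM in KO and 13.4 and 18.2 in WT, with log2 fold change 0.70 (SE 0.30, adjusted p = 0.427). Tnfrsf22 had 2.84 and 2.17 CPM in KO and 5.42 and 7.59 in WT, with log2 fold change -1.32 (SE 0.47, adjusted p = 0.309). With RMN030 left out, Tnfrsf12a had a log2 fold change of 0.72, and with RMN039 left out Ngfr had -1.94. Each such fit leaves 1 library in a group, assumed to vary like the other group, so only effect sizes are given. Tnfrsf12a and Ngfr were picked by the outcome of these fits. In these 4 libraries KO is again the later run and WT the earlier run, so genotype and code run cannot be told apart. T cell markers summed to 37.0 to 43.3 CPM in the KO pair and 247 to 281 in the WT pair, blood markers to 1272 to 1355 and 122 to 150.5, macrophage markers to 187 to 198 and 89.4 to 92.3, and fibroblast markers to 111 to 176 and 42.3 to 49.1. The part of these markers in the differences was not tested.

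**Figure D3:**
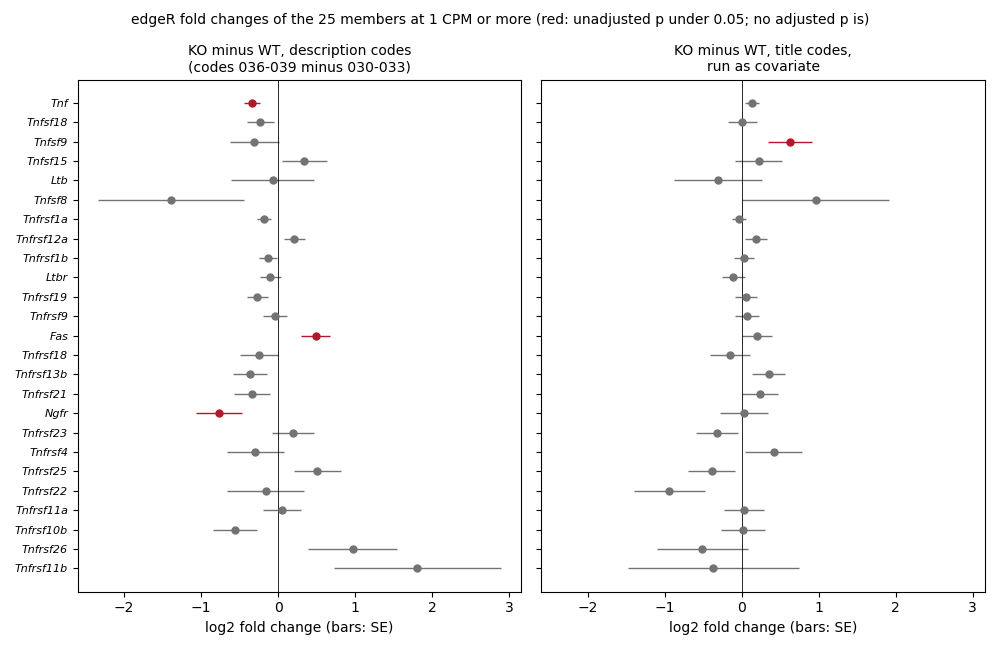
Log2 fold changes (KO minus WT) with standard errors from edgeR for the 25 members at a mean of 1 CPM or more, by description code on the left and by title code with the run as covariate on the right. Red marks an unadjusted p under 0.05, which 3 members reach on the left and 1 on the right, and no adjusted p is under 0.05.

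Whether the title-code difference depended on the run was tested as an interaction. At an adjusted p under 0.05, 0 of 31 members and 0.0186% of 16146 genes were called. At an unadjusted p under 0.05 there were 4 members, Tnf, Tnfsf9, Tnfrsf1b and Tnfrsf13b, against 7.93% of genes, all with a positive interaction term. The log2 fold change of Tnfrsf1b was -0.30 (SE 0.14) within the earlier run and 0.37 (SE 0.10) within the later run, opposite in sign. Within the earlier run Tnfrsf13b had -0.07 (SE 0.24), Tnf -0.04 (SE 0.13) and Tnfsf9 -0.02 (SE 0.31). Tnfrsf1b had the smallest p, with an interaction log2 term of 0.68 (SE 0.16, adjusted p = 0.310). Tnfsf9 had 1.36 (SE 0.43, adjusted p = 0.444), Tnfrsf13b 0.86 (SE 0.33, adjusted p = 0.547) and Tnf 0.35 (SE 0.15, adjusted p = 0.586). DESeq2 called 1 of 38 members, Tnfrsf1b, with a term of 0.67 (adjusted p = 0.0376), and 0.404% of genes. The other settings gave Tnfrsf1b adjusted p from 0.101 to 0.779. Some of the 38 members and of all genes had no adjusted p in DESeq2, so both shares are lower bounds.

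Within the later run, with KO RMN038 and RMN039 against RMN036 and RMN037 as WT by title, 0 of 28 members and 0.0% of genes had an adjusted p under 0.05. The same 4 members were under an unadjusted 0.05, against 7.35% of genes. Their log2 fold changes were 1.32 (SE 0.28) for Tnfsf9, 0.78 (SE 0.26) for Tnfrsf13b, 0.37 (SE 0.10) for Tnfrsf1b and 0.30 (SE 0.08) for Tnf, with adjusted p from 0.451 to 0.588. By description code all 4 of these libraries are KO, so the contrast is then within a genotype. Blood markers summed to 1272 to 1355 CPM in KO RMN038 and RMN039 and to 580.2 to 861.2 in RMN036 and RMN037. Macrophage markers summed to 187 to 198 and 152 to 165, and keratinocyte markers to 11950 to 12040 and 13300 to 13750. The sums of T cell, fibroblast and mast cell markers overlapped, and the part of these markers was not tested. Within the earlier run, with RMN032 and RMN033 as KO by title against WT RMN030 and RMN031, 0 of 28 members were called against 0.375% of genes. At an unadjusted p under 0.05 there were 5, Lta, Tnfsf8, Tnfsf15, Tnfrsf4 and Tnfrsf21, against 7.6% of genes, with log2 fold changes of 2.11 (SE 0.82), 1.5 (SE 0.62), 0.78 (SE 0.34), 0.92 (SE 0.41) and 0.60 (SE 0.26). The T cell markers summed to 42.3 to 50.6 CPM in RMN032 and RMN033 and to 247 to 281 in WT RMN030 and RMN031. In the same order, macrophage markers summed to 53.5 to 54.2 and 89.4 to 92.3, and blood markers to 225 to 226 and 122 to 150.5. Fibroblast markers summed to 35.6 to 36.8 and 42.3 to 49.1, and keratinocyte markers to 14390 to 15070 and 11710 to 14150. The mast cell sums overlapped, and without Kit they were 2.16 to 2.21 and 4.89 to 5.76. The part of these markers in the differences was not tested.

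**Figure D4:**
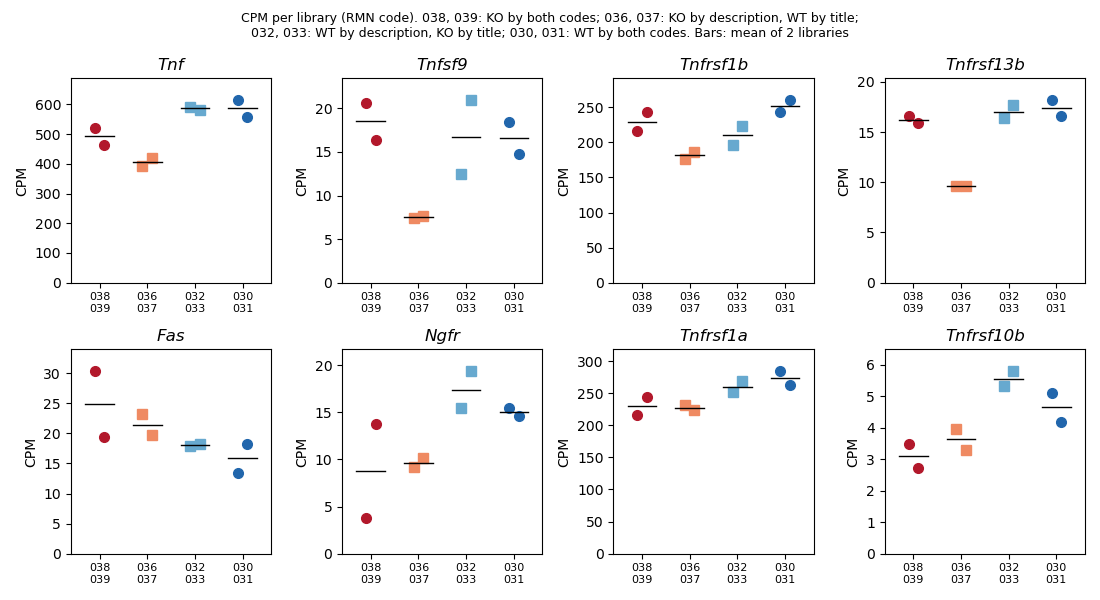
CPM of 8 members in the 8 libraries, arranged from left to right as the KO pair, RMN036 and RMN037, RMN032 and RMN033, and the WT pair, with bars at the mean of each pair and every axis from 0. RMN036 and RMN037 are lowest for Tnf, Tnfsf9, Tnfrsf1b and Tnfrsf13b. Tnf also splits by run, as do Fas, Ngfr, Tnfrsf1a and Tnfrsf10b.

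Genes that act directly below the receptors were given as a list of 44, all of which passed the filter. By description code, 2 of 44 were higher and 1 lower at an adjusted p under 0.05, where 2.02% of all genes were called, and 13 of 44 had an unadjusted p under 0.05, where 12.6% of genes did. The median log2 fold change was -0.039 over the list and -0.008 over all genes tested. Traf1, an adaptor of the TNF receptor without a death domain and itself an NF-kappaB target, had 57.6 and 58.9 CPM in KO RMN038 and RMN039, 59.2 and 59.0 in RMN036 and RMN037, 37.0 and 34.5 in RMN032 and RMN033, and 45.7 and 38.7 in WT RMN030 and RMN031. All 4 later libraries were above the 4 earlier ones, and Traf1 rose in KO by this reading, with log2 fold change 0.63 (SE 0.13, adjusted p = 0.0217). Ripk1, the kinase that sends TNF receptor signals towards NF-kappaB or cell death, had 68.5 and 77.8 CPM in KO RMN038 and RMN039, 74.4 and 61.6 in RMN036 and RMN037, 41.7 and 33.6 in RMN032 and RMN033, and 44.7 and 59.7 in WT RMN030 and RMN031. It rose by 0.69 (SE 0.16, adjusted p = 0.0468), and the groups did not overlap.

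Tnfaip3, which encodes A20, the ubiquitin-editing inhibitor of NF-kappaB signalling, had 1876 and 1934 CPM in KO RMN038 and RMN039, 1850.0 and 1845 in RMN036 and RMN037, 2432 and 2400.0 in RMN032 and RMN033, and 2219 and 2391 in WT RMN030 and RMN031. Its 4 later libraries were below the 4 earlier ones, and the log2 fold change was -0.29 (SE 0.07, adjusted p = 0.0401). All 3 calls missed the threshold when any 1 library was left out, except RMN030 for Traf1 and Tnfaip3 and RMN031 for Ripk1, with adjusted p up to 0.0899 for Traf1, 0.141 for Ripk1 and 0.125 for Tnfaip3, always in the same direction. By title code with the run as covariate these genes had log2 fold changes of -0.14 (SE 0.12), -0.19 (SE 0.16) and 0.05 (SE 0.06), none called. By description code KO and the later run cannot be told apart for them either, and the macrophage, fibroblast, mast cell and blood marker sums, higher in the later run, were not tested for their part.

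In the title-code fit 0 of 44 signalling genes were called and 1 had an unadjusted p under 0.05, where 4.59% of all genes did. With the run as covariate 0 were called and 3 had an unadjusted p under 0.05, where 6.15% of all genes did. Traf4, an adaptor best known in epithelia, had the smallest p in both, with log2 fold changes of -0.46 (SE 0.14, adjusted p = 0.998) and -0.46 (SE 0.13, adjusted p = 0.620). It had 222.1 and 190.5 CPM in KO RMN038 and RMN039 and 247.8 and 248.0 in RMN036 and RMN037. In RMN032 and RMN033 it had 199.6 and 189.3 CPM, and in WT RMN030 and RMN031 358.0 and 244.2. Its groups by title code did not overlap, as was so for 2.94% of genes tested. Map3k14, the NIK kinase of the noncanonical route, had -0.23 (SE 0.13) without and -0.24 (SE 0.10) with the run. Birc3, a ubiquitin ligase recruited by TRAF proteins, had 0.22 (SE 0.13) without the run, and Rela, the p65 subunit of NF-kappaB, -0.35 (SE 0.15) with it. The medians over the list were -0.061 and -0.062, beside -0.003 and -0.005 over all genes tested. In the libraries on which both codes agree 0 of 44 were called and 9 had an unadjusted p under 0.05, where 11.3% of all genes did. For the interaction 0 were called and 5 had an unadjusted p under 0.05, where 7.93% of all genes did.

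**Figure D5:**
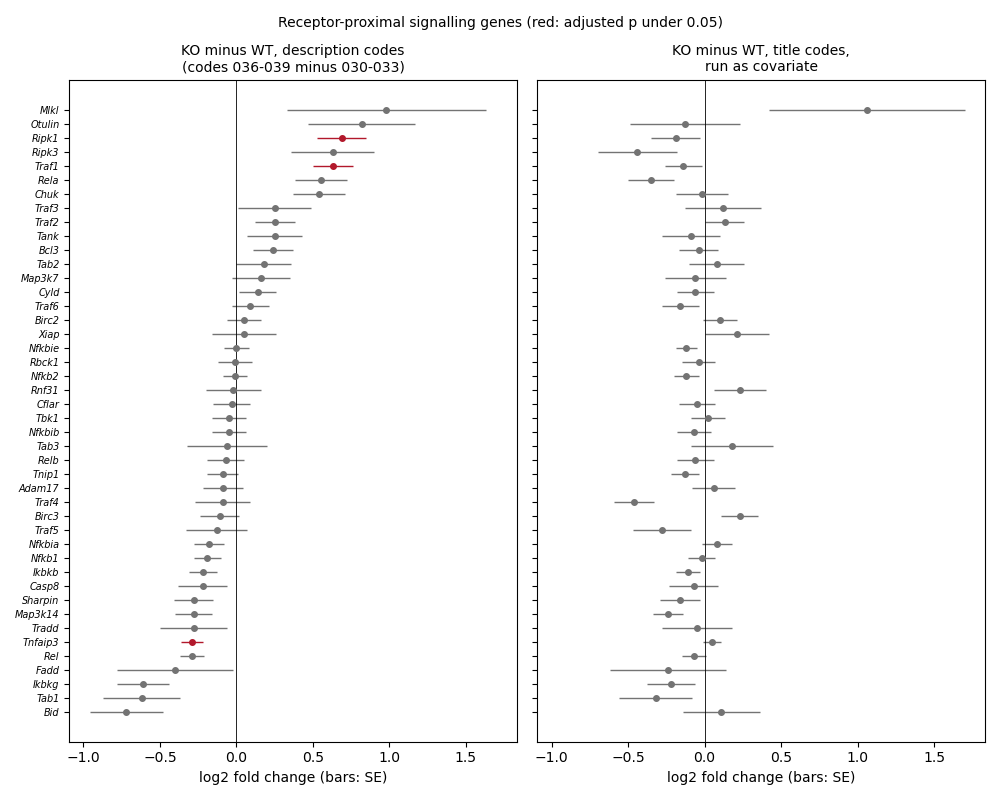
Log2 fold changes (KO minus WT) with standard errors from edgeR for the 44 signalling genes, ordered by the description-code value, by description code on the left and by title code with the run as covariate on the right. Red marks an adjusted p under 0.05, which Traf1, Ripk1 and Tnfaip3 reach on the left and no gene on the right.

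Of 8 further family genes whose names do not follow the rule, Cd40, the receptor that licenses dendritic cells, was the most abundant, at 32.6 ± 3.85 CPM per kb (SD, n = 8) and 89.0 to 134.5 CPM, below Tnfrsf1b and above Ltbr. Relt ranged from 4.90 to 13.4 CPM and Eda, the ectodysplasin ligand, from 0.970 to 8.52 CPM. Edar ranged from 0 to 2.64, Eda2r from 0 to 1.56 and Cd70 from 0 to 0.807 CPM. Cd27, the receptor of Cd70 carried by T cells, had 0.426 and 0.543 CPM in KO RMN038 and RMN039, 0 and 0 in RMN036 and RMN037, 0.123 and 0.369 in RMN032 and RMN033, and 4.28 and 5.06 in WT RMN030 and RMN031, the pair in which the T cell markers were high. Cd40lg was at 0 in 7 libraries and at 0.611 CPM in RMN030. None of the 8 had an adjusted p under 0.05 in edgeR in any of the 5 fits, where 4 to 6 passed the filter. An unadjusted p under 0.05 was reached by 1 in the libraries on which both codes agree, where 11.3% of all genes did. For the interaction 1 reached it, where 7.93% of all genes did. In the agreed libraries Cd27 had a log2 fold change of -3.21 (SE 0.67) at an adjusted p of 0.059.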

How the data were processed

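Raw counts of reads per gene were deposited by the authors as 1 table of 8 libraries. STAR 2.5.2b, featureCounts 1.5.0 and GRCm38 (mm10) are named in the submitters' processing notes, while the annotation release, strand setting and treatment of read pairs are not given in the sources used here. Per the labels' protocols, epidermis of ears was digested and live CD45+ MHCII+ CD24+ EpCAM+ Ly6G- CD103- cells were sorted. Of counts from 1 to 20, 60.1% were even, so counting intervals may be too narrow if mates were counted separately. All 8 columns were used.

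Symbols matched for 25080 of 25247 identifiers, and lengths and coordinates came from GENCODE vM21 (GRCm38). CPM are counts over the column total. Differences are KO minus WT from edgeR 4.0.16 (R 4.3.3): filterByExpr, TMM, robust quasi-likelihood F-tests over all genes, two-sided, Benjamini-Hochberg adjusted, threshold 0.05. Standard errors were derived from the F statistic. Permutation tests used log2(CPM + 0.5). Simulated counts with known changes were used to test the edgeR code. Other settings were DESeq2 1.42.0, limma 3.58.1 (voom, quality weights), RLE factors, filtering at 1 CPM or not at all, leaving out single libraries or both RMN030 and RMN031, fits within a run and a block for the replicate number.

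The members and lists were chosen with earlier results of these data known. Every member is named, with all libraries given for those at a mean of 1 CPM or more. From the list of 44, genes past the threshold and the 3 with the smallest p in the title-code, run-adjusted and description-code fits were named.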

Additional observations from a re-analysis of the deposited data

Results flagged for a closer look

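Groups of 4 libraries were searched for a value far from the other 3. It was found in 4 of 100, and chance alone flags about 1 in 20, or 5. Fas in RMN038 stood at 30.33 CPM among the KO libraries by title code, against 17.89 to 19.36 in the other 3. Fas in RMN030 stood at 13.44 CPM among the WT libraries by description code, against 17.89 to 18.24. Ngfr in RMN033 stood at 19.35 CPM among the WT libraries by description code, against 14.65 to 15.44. Tnfrsf22 in RMN037 stood at 12.47 CPM among the KO libraries by description code, against 2.172 to 2.891, and is a near copy of Tnfrsf23.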

How the results depend on the processing

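The number of members called was 0 in all 5 edgeR fits and 0 under the alternatives run, with these exceptions. DESeq2 called 1 member by description code (Tnf) and 1 for the interaction (Tnfrsf1b). In the 4 libraries on which both codes agree, leaving out a library leaves 1 in a group, so those fits are not counted here. Over the 25 members described in full, 147 of 1675 estimates under alternatives had the opposite sign to the reported one, and 0 of these belonged to an estimate with an unadjusted p under 0.05. The 1675 estimates do include the fits with 1 library in a group.

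Same-numbered libraries of KO and WT had correlations of 0.053 to 0.1 by title code and -0.005 to 0.032 by description code. By title code, libraries with the same number also share a code run. No clear pairing by number was seen, but such correlations over all genes cannot exclude one. With the replicate number as a block, 0 members were called in both readings. Under that block Traf1, Ripk1 and Tnfaip3 by description code had adjusted p of 0.0521, 0.0962 and 0.104, and the genes called overall numbered 174 in place of 296.

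Counts over all genes moved more. By description code they were 704 with DESeq2, 226 without RMN030 and RMN031 and 140 to 219 with a library left out. For the agreed libraries, 117 became 440 without a filter and 293 with DESeq2. By title code, 0 became 24 with DESeq2 and 1 without a filter, and with the run 139 without a filter, 46 with DESeq2 and 3 with voom. For the interaction, 3 became 178 without a filter, 102 with DESeq2, 7 at 1 CPM and 0 to 8 with a library left out. The causes were not tested. Depth limits members under 1 CPM, where 3 counts are 0.158 to 0.271 CPM.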
